A study of Mus musculus with 2 samples.

Results

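The regions described here are the peaks of Tdg binding at 9 imprinted genes of the mouse, H19, Peg3, Snrpn, Meg3, Igf2r, Gnas, Mest, Peg10 and Plagl1. A peak was a member if it overlapped, by at least 1 bp, a fixed span around one of these genes or the 10 kb on either side of that span. This gave 38 peaks of the 72970 in the list. The spans were chr7:149761400-149764100 for H19, chr7:6658000-6683000 for Peg3, chr7:67128000-67149000 for Snrpn, chr12:110779200-110810000 for Meg3 and chr17:12875200-12962600 for Igf2r. Those of the others were chr2:174110000-174172000 for Gnas, chr6:30688000-30698000 for Mest, chr6:4697000-4710000 for Peg10 and chr10:12780000-12851000 for Plagl1. The list came from Biotag ChIP-seq of E14 cells, an embryonic stem cell line of the mouse, and all positions of peaks and spans are in the build mm9. The series held 2 ChIP libraries, 1 from cells labelled Bio-Tdg and 1 from cells labelled BirA (mock), with no treatment or time point in the labels. In Biotag ChIP the enzyme BirA puts biotin on a peptide fused to the protein, which is then collected with its DNA on streptavidin. Only the Bio-Tdg list (n = 1) was analysed here and no file of the mock was. No value therefore has a replicate error or a measured background, counts are descriptions without a test, and peaks do not separate the maternal from the paternal copy of a gene.

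Imprinted genes are expressed from 1 parental copy. The choice rests on CpG methylation that is laid down in the egg or the sperm and kept through the demethylation of the early embryo, in which Zfp57 binds the methylated copy of many control regions. Tdg, thymine DNA glycosylase, removes 5-formylcytosine and 5-carboxylcytosine, the products that Tet enzymes make from methylcytosine, and so takes part in active demethylation. At Peg3, Snrpn, Mest, Peg10, Plagl1, Igf2r and Gnas the germline methylation is maternal, and at H19 and Meg3 it is paternal.

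The promoters below belong to the genes whose start or internal start the peaks are compared with, and are shown because the CpG is the site on which Tdg and Zfp57 act. They were read from RefSeq for GRCm38.p6, the windows hold 250 bases before and 50 after a transcript start, and CpG dinucleotides are in capitals. Each is written 5′ to 3′ in the direction of transcription.
Peg3 (chr7:6730370-6730669, minus strand): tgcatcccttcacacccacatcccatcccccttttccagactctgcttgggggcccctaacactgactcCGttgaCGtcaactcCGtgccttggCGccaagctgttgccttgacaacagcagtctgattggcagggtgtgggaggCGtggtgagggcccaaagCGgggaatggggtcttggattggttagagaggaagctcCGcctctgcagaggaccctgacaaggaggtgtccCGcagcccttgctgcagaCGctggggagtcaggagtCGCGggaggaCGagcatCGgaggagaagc
Snrpn (chr7:60005150-60005449, minus strand): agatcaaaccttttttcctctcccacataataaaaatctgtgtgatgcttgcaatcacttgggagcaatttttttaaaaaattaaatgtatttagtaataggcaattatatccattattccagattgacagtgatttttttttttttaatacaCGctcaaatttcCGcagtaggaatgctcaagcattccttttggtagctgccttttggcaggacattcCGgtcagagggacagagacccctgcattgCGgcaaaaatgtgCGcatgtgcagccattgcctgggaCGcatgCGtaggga
Mest (chr6:30737803-30738102, plus strand): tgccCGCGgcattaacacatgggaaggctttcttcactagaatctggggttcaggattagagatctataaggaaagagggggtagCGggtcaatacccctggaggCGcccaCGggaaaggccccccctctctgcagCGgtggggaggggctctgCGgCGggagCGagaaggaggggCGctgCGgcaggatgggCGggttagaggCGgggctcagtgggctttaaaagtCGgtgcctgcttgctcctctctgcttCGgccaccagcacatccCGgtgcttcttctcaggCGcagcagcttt
Igf2r (chr17:12769657-12769956, minus strand): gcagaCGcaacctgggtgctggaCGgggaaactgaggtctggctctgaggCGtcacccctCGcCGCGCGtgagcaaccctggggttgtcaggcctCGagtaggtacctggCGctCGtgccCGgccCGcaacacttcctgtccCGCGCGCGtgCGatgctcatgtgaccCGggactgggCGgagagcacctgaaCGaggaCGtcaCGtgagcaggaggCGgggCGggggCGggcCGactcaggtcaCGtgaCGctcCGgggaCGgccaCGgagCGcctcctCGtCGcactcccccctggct
Airn (chr17:12741061-12741360, plus strand): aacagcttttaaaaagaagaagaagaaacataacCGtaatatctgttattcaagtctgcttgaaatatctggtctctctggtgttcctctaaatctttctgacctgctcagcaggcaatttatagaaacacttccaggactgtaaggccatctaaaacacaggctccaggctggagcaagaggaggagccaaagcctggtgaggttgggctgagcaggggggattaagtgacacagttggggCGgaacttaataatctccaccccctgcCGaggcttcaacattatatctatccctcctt
Gnas, most upstream start (chr2:174284070-174284369, plus strand): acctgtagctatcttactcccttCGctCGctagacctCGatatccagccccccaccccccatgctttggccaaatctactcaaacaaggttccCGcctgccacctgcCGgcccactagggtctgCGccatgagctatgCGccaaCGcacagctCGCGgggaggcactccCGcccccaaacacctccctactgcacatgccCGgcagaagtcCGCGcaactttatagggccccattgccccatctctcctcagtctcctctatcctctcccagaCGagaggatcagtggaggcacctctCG
Gnas, most downstream start (chr2:174329756-174330055, plus strand): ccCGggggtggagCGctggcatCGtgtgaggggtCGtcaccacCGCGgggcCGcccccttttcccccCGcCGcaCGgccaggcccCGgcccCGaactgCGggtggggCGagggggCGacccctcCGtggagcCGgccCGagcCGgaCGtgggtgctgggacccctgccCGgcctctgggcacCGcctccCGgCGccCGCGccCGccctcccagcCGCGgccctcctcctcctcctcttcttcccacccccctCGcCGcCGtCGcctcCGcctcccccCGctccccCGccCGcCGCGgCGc
Meg3 (chr12:109540746-109541045, plus strand): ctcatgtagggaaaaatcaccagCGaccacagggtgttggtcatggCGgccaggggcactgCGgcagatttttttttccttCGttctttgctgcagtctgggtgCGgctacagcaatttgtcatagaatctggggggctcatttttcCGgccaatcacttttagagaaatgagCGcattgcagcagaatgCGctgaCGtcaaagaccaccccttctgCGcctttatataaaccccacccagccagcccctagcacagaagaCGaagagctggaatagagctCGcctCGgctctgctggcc
For genes with several starts, the start shown is the one whose distance to the far end of the gene came closest to the length of the span, and for Gnas also the most downstream start. RefSeq promoters were matched by symbol for 7 of the 9 genes, and H19 and Peg10 were not matched.

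The Igf2r promoter held 34 CpG, at the 92.7th percentile of the 32817 promoters of the table. The most downstream Gnas promoter held 40 CpG (96.3rd percentile) and the Plagl1 promoter 26 (83.8th percentile). Mest had 17 CpG, the most upstream Gnas start 16, Peg3 and Meg3 13 each and Snrpn 7, and the median promoter had 7. Airn, the antisense RNA that starts inside Igf2r, had 3 in this window. The windows were not placed on the methylated control regions, so these counts do not describe the CpG content of those regions. The 6 letters TGCCGC, the core that Zfp57 is known to bind when methylated, were searched on both strands. They occurred in 11.6% of all promoters and in the windows of 4 of the 7 matched genes. The letters hold a CpG, and 6 of these 7 genes had more CpG than the median promoter. The 11.6% is not matched for CpG content, so the shares cannot show an excess of such sites. The Plagl1 window is not printed above, and its start was 42.4% off the span length. Mest held 2 matches, at bases 6 and 181 counted from the 5′ end of the window. Snrpn held 1 match at base 249, Meg3 1 at base 61 and Plagl1 1 at base 161, and all 5 matches read GCGGCA in the direction of transcription. No match overlapped another. The letters do not occur in the windows of Peg3, Igf2r, Airn and Gnas.

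**Figure D1:**
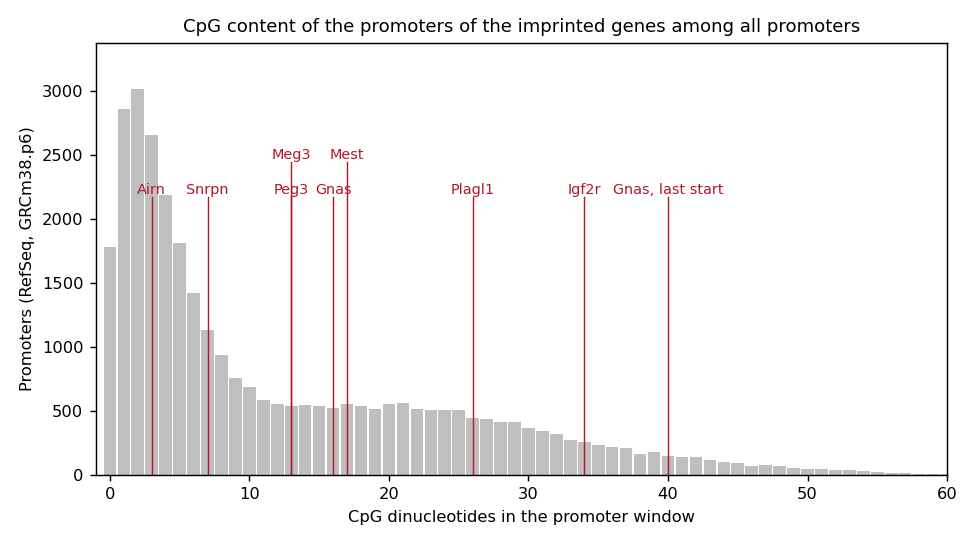
Number of CpG dinucleotides in the promoter windows of RefSeq (x axis) against the number of promoters with that count (y axis, grey bars), with red lines at the imprinted genes. Snrpn stands at the median of 7, Igf2r at 34 and the most downstream Gnas start at 40.

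Tdg peaks lay at 8 of the 9 loci, and the H19 window had none. When chromosomes 1 to 19 were cut into adjoining tiles of the length of each window, tiles with at least 1 peak made up 31.9% for the H19 length, 36.3% for Mest, 37.9% for Peg10, 41.6% for Snrpn and 43.1% for Peg3. For the longer windows the share was 45.3% (Meg3), 53.8% (Gnas), 55.4% (Plagl1) and 58.2% (Igf2r). Gnas carried 13 of the 38 peaks, Igf2r and Peg10 carried 5 each, Peg3 and Mest 4 each, Meg3 and Plagl1 3 each and Snrpn 1. Together the 9 windows spanned 503 kb, of which peaks covered 7.47%, with 0.756 peaks per 10 kb. Chromosomes 1 to 19 as a whole were covered to 3.24%, with 0.300 peaks per 10 kb. The windows were chosen at genes and the tiles lie anywhere, so the tiles are not a background of other genes, whose mm9 positions were not used here.

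Peaks lay at the 5′ ends of the spans and not at their 3′ ends. A peak lay within 1 kb of the 5′ end of the span at 8 of the 9 loci, against 8.18% of autosomal positions, and at 6 loci it overlapped that end, against 3.24% of positions. At the 3′ end none of the 9 spans had a peak within 1 kb, and the closest was 8.31 kb away, at Peg3. The strand was that of the RefSeq promoter table for 7 genes, of which 7 had such a 5′ peak. For Peg10 and H19 the direction of transcription was taken from general knowledge. H19, the locus without a 5′ peak, was thus not among the 7. Span ends are rounded and need not be a transcript start. In 6 genes (Peg3, Snrpn, Meg3, Igf2r, Gnas and Mest) the distance from a RefSeq start to the gene's far end was within 10% of the span length. Of these, 6 had the 5′ peak. The limit is too coarse to place a start within 1 kb of the span end. At Peg3 the distance was 26528 bp against a span of 25001 bp, and at Snrpn 22705 against 21001 bp. Where a gene had several starts, the one closest to the span length was taken, which favours a match. The share of other genes with a peak at their start was not analysed here.

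**Figure D2:**
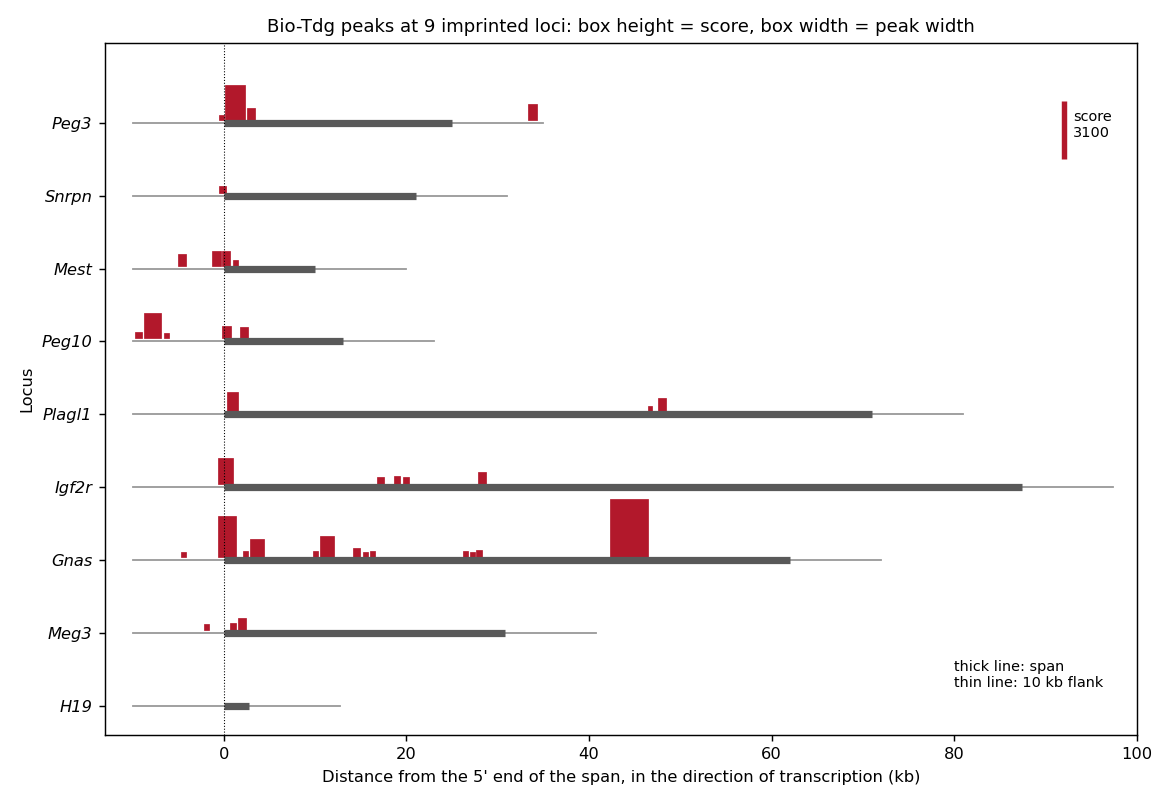
Peaks at the 9 loci, with distance from the 5′ end of each span in kb on the x axis and 1 row per gene. Boxes are peaks, their width is the peak width and their height the score, thick lines are spans and thin lines the 10 kb flanks. Boxes stand at or next to 0 in every row except H19, which has none.

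Among the genes expressed from the paternal copy, Peg3 encodes a zinc finger protein known for effects on growth and maternal behaviour. Its start is shared with the divergent gene Usp29. The Peg3 window had 4 peaks, against 13.8% of tiles of that length with at least 4. Reads per peak were computed back from the score and the width under a single fitted rate, and would all be 1 higher if the p-value was that of reaching, not exceeding, the number. The peak chr7:6680682-6682873 had 139 recovered reads (exact 95% Poisson interval 117 to 164, counting error only), a score of 1871 and a width of 2192 bp. Its score was above that of 88.1% of the list, and it began 127 bp inside the span. The score is the authors' value per peak, and in the output of MACS it is −10 times the log10 of the p-value. The peak chr7:6682949-6683501, which overlapped the 5′ end itself, had 22 reads (13.8 to 33.3) and a score of 274, in the lowest 1.11% of the list. Another, chr7:6679575-6680481, had 49 reads (36.3 to 64.8) and a score of 644. These 3 peaks were separated by gaps of 75 and 200 bp and formed a run of 3927 bp with 210 reads, from 501 bp before to 3425 bp inside the 5′ end. The fourth, chr7:6648703-6649693, with 62 reads (47.5 to 79.5) and a score of 847, lay 8.31 kb beyond the 3′ end.

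Snrpn, which encodes a protein of the spliceosome and shares its start with Snurf, had the fewest peaks of the loci with any. Its only peak, chr7:67148761-67149496, had 28 reads (18.6 to 40.5), a score of 336 and a width of 736 bp. It overlapped the 5′ end of the span, from 496 bp before to 239 bp inside. The lower quartile of scores in the whole list was 336 as well. No other peak lay within 663 kb, and the 1 Mb around the window held this peak alone. Among tiles of the length of the Snrpn window, 41.6% held at least 1 peak.

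Mest, which encodes a hydrolase-like protein of mesoderm, had 4 peaks, against 8.53% of tiles of that length with at least 4. The peaks chr6:30686745-30687639 and chr6:30687764-30688723 had 56 reads each (42.3 to 72.7), with scores of 768 and 751. They lay on either side of a gap of 124 bp, the first ending 361 bp before the 5′ end and the second overlapping it. A smaller peak, chr6:30688975-30689513, had 22 reads (13.8 to 33.3) and a score of 276. The 3 together spanned 2769 bp, from 1255 bp before to 1513 bp inside the span. The fourth, chr6:30683026-30683889, had 47 reads (34.5 to 62.5) and a score of 620, and lay 4.11 kb upstream. In RefSeq, in its own build, Mest has another start 4.55 kb upstream of the one shown. No position was carried between builds.

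Peg10, which derives from a retrotransposon and is needed for the placenta, lies head to head with Sgce. It had 5 peaks, against 6.53% of tiles of that length with at least 5. The peak chr6:4696810-4697821 overlapped the 5′ end and had 52 reads (38.8 to 68.2) and a score of 671. The peak chr6:4698767-4699648, 1767 bp inside the span, had 48 reads (35.4 to 63.6) and a score of 633. The strongest peak of the locus lay upstream, on the Sgce side. It was chr6:4688205-4690094, with 106 reads (86.8 to 128), a score of 1378 and a width of 1890 bp, and its interval does not overlap that of the peak at the 5′ end. Per length the peaks were closer, with 56.1 against 51.4 reads per kb. The upstream peak was flanked by chr6:4687254-4688027 with 29 reads (19.4 to 41.6) and a score of 346, and by chr6:4690419-4690976 with 24 reads (15.4 to 35.7) and a score of 305. These 3 formed a run of 3723 bp that ended 6.02 kb before the 5′ end.

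Plagl1, which encodes a zinc finger protein that restrains cell growth, had 3 peaks, against 32.1% of tiles of that length with at least 3. The peak chr10:12780300-12781587 lay 300.0 bp inside the span, with 77 reads (60.8 to 96.2), a score of 1030 and a width of 1288 bp. The others, chr10:12826444-12826906 and chr10:12827557-12828388, had 22 reads (13.8 to 33.3) and 51 reads (38.0 to 67.1), with scores of 291 and 697. They lay 46.4 to 48.4 kb from the 5′ end. The span of Plagl1 was 71.0 kb long, whereas the RefSeq gene was 40.9 kb long in its own build, so the 5′ end of this span need not be the start in that table. Counted back from the 3′ end of the span, the 3 peaks lay between 22.6 and 70.7 kb away, and none lay between 24.6 and 69.4 kb.

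Igf2r is expressed from the maternal copy and encodes the receptor that takes up and clears insulin-like growth factor 2. Its germline methylation lies inside the gene, at the start of Airn, whose transcription silences the paternal Igf2r. The window had 5 peaks, against 24.3% of tiles of that length with at least 5. The strongest was chr17:12961607-12963241 at the 5′ end, with 102 reads (83.2 to 124), a score of 1374 and a width of 1635 bp, from 641 bp before to 993 bp inside the span. Next came chr17:12933868-12934722, with 49 reads (36.3 to 64.8) and a score of 657, whose interval does not overlap that of the peak at the 5′ end. Per length the values were 57.3 and 62.4 reads per kb. This peak lay 27.9 to 28.7 kb inside the span. In RefSeq the start of Airn lies 28.4 kb inside Igf2r, measured in GRCm38.p6, where the gene is 87.3 kb long against 87.4 kb for the mm9 span. The distances stand side by side and an overlap was not measured. The other 3 peaks were chr17:12942313-12942995 with 30 reads (20.2 to 42.8), chr17:12943275-12943943 with 34 (23.5 to 47.5) and chr17:12945108-12945775 with 29 (19.4 to 41.6), 16.8 to 20.3 kb inside. Their scores ran from 364 to 446. The last 58.7 kb of the span, up to its 3′ end, had no peak.

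Gnas is a locus of several starts. They give the neuroendocrine protein Nesp55, the XLαs form and, most downstream, the stimulatory G protein α subunit, with antisense transcription between them. Its window had 13 peaks and 17.8% of its bases covered, and 4.0% of tiles of that length had at least 13. The widest of the 38 peaks was chr2:174152247-174156425, with a width of 4179 bp. Its score of 3100 was above those of the other 37, but it lies where the score saturates. Exactly 1649 peaks of the list share this value and 312 exceed it, so it gives no rank among them, and reads could not be recovered there. The peak at the 5′ end, chr2:174109382-174111292, had the highest score of the 37 with recovered reads, with 151 reads (128 to 177), a score of 2173, a width of 1911 bp and 79.0 reads per kb. The other 11 peaks had 22 to 86 reads and scores of 280 to 1127. The peaks fell into 4 runs of peaks less than 1 kb apart and 2 separate peaks. The runs lay from 618 bp before to 4.42 kb inside the span, at 9.80 to 12.0 kb, at 14.1 to 16.5 kb and at 26.2 to 28.3 kb, with 256, 111, 84 and 79 reads. A separate peak lay 4.15 kb upstream of the span. The widest peak stood apart at 42.2 to 46.4 kb. The other Gnas starts in the RefSeq promoter table lie 43.4 to 45.7 kb downstream of the most upstream one. This was measured in GRCm38.p6, where the gene is 62.4 kb long against 62.0 kb for the mm9 span. The product of each start was not given there, so the XLαs start need not be among them. The runs of peaks farther upstream were therefore not compared with all starts of the locus. Here too the distances are from separate builds and no overlap was measured.

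The genes with paternal germline methylation had 3 peaks in all, against 35 at the other 7 loci. Meg3, a maternally expressed long noncoding RNA, had all 3, and 21.2% of tiles of that length had at least 3. The peak chr12:110779875-110780494 lay 675 bp inside the span, with 29 reads (19.4 to 41.6) and a score of 374. It was followed after 215 bp by chr12:110780710-110781657 with 48 reads (35.4 to 63.6) and a score of 618. The third, chr12:110777013-110777570, lay 1.63 kb upstream with 24 reads (15.4 to 35.7) and a score of 305. The windows of H19 and Meg3 were 22.7 and 50.8 kb long, and 2 loci are too few to compare the classes. The control region between Dlk1 and Meg3 lies farther upstream and was not located here. It need not lie in the window, so the 3 peaks need not describe it. The nearest peaks outside the window lay 2386 bp upstream and 30731 bp downstream of its edges.

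H19, a maternally expressed long noncoding RNA that gives rise to a growth-limiting miRNA, had no peak in its span of 2.70 kb or in the flanks. Its control region, which CTCF binds on the maternal copy, is known to lie shortly upstream of the gene. The nearest peaks were 32.3 kb away on the upstream side, with a score of 1353, and 36.9 kb away on the other side. The 1 Mb around H19 was not short of peaks. It held 53, or 0.542 per 10 kb outside the window, against 0.334 per 10 kb on chromosome 7. A window without a peak was the commoner case at this length, since 31.9% of the tiles had one. The list's lowest peaks held 21 reads and the depth of the library is not known, so absence from the list is no measure of absent binding.

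Peaks were denser in the window than in the rest of the surrounding 1 Mb at 7 of the 9 loci, against 27.6% of autosomal tiles of the 9 lengths, each compared with the 1 Mb around it. Peg10 had 1.52 peaks per 10 kb against 0.207 around it, Gnas 1.59 against 0.283, Mest 1.33 against 0.485 and Peg3 0.889 against 0.408. At Meg3 the values were 0.591 and 0.211, at Igf2r 0.466 and 0.325, and at Snrpn 0.244 and 0. Plagl1, with 0.330 against 0.451, and H19 went the other way. Relative to the whole chromosome, the ratio ran from 0.730 at Snrpn and 0 at H19 to 5.48 at Mest and 6.23 at Peg10, and it exceeded 1 at 7 loci, against 30.7% of such tiles. Tiles lie anywhere and the windows at genes, so these shares too are no background of other genes. The ratio to the chromosome was 1.21 at Igf2r, 1.11 at Plagl1, 2.66 at Peg3 and 2.46 at Meg3. The exact 95% Poisson intervals of their counts were 1.62 to 11.7 for 5 peaks at Igf2r and 1.09 to 10.2 for 4 at Peg3. For the 3 peaks at Plagl1 and the 3 at Meg3 they were 0.619 to 8.77. Each of these intervals includes the count that the density of the chromosome would give in the window, as do those of Snrpn and H19. The intervals of Gnas, Mest and Peg10 lay above that count. All intervals take peaks as independent, although these peaks lay close together. Within the windows, the spans had 0.929 peaks per 10 kb and the flanks 0.444. Without Gnas, which held 12 of the 30 peaks in spans, the ratio of these densities fell from 2.09 to 1.58. With each peak placed by its midpoint, so that peaks reaching over a span end were no longer all counted to the span, the ratio over the 9 loci was 1.56. That value includes Gnas. The 1.58 in turn still counts to the span a Peg3 peak with 52 of its 553 bp inside and the Snrpn peak with 240 of 736 bp inside. The ratio under both changes together was not computed, and each change lowers it.

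**Figure D3:**
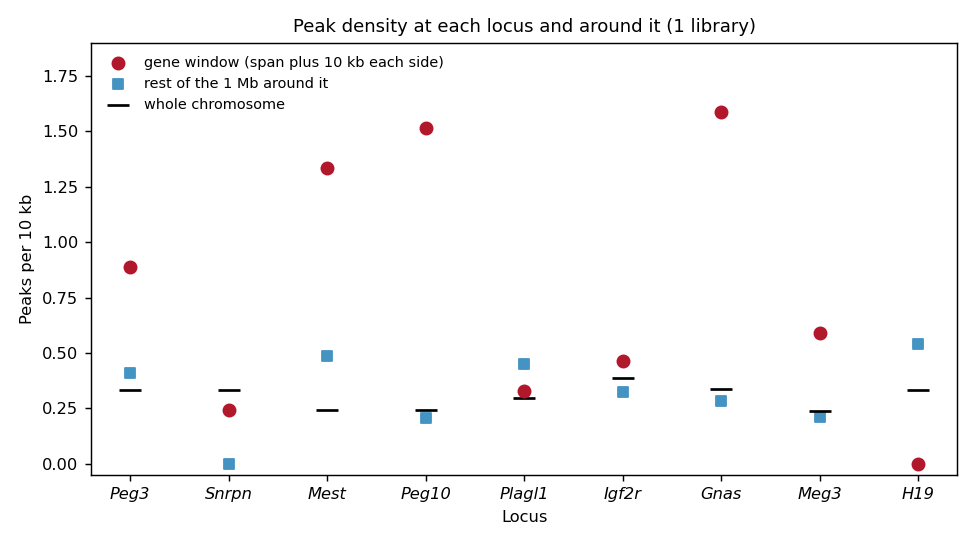
Peaks per 10 kb (y axis) at each locus (x axis) in the window of the gene (red circles), in the rest of the 1 Mb around it (blue squares) and on its whole chromosome (black dashes), from 1 library. Red circles lie above blue squares at 7 loci and below them at Plagl1 and H19.

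The peaks of these loci lay close to one another. Another peak lay less than 1 kb away for 28 of the 38, or 73.7%, against 32.9% of the whole list, and for 68.0% when Gnas was left out. Joined across such gaps the 38 peaks gave 21 stretches, of which 11 held at least 2 peaks. The median score was 459 against 553 for all peaks, the median width 775 against 850 bp and the median of recovered reads 34 (37 peaks) against 41. Gnas decided the order of the median scores, widths and reads. Without it the 25 remaining peaks had a median score of 620, a median width of 855 bp and a median of 48 reads, whereas the 13 Gnas peaks had a median score of 342. A score of at least 500 was reached by 18 of the 38 peaks, or 47.4%, against 54.3% of the list. A score of at least 1000 was reached by 7, or 18.4%, against 28.2%. Without Gnas these shares were 56.0% (14 of 25) and 16.0% (4 of 25), so the share at 500 passed that of the list and the share at 1000 stayed below it. The 7 lay at Gnas (3), Peg3, Igf2r, Peg10 and Plagl1. The 11 peaks within 1 kb of a 5′ end had a median score of 751 and a median of 56 reads, and the other 27 had a median score of 392 and 30.5 reads. The gap was smaller without Gnas, where 10 peaks near a 5′ end had a median of 711 and 54 reads and the other 15 had 618 and 47 reads, a setting added after seeing the data. Read density was near that of the list, with a median of 47.7 reads per kb against 49.5. It was 58.3 for the peaks near the 5′ ends and 46.8 for the others. Without Gnas the median over the remaining peaks was 51.4 reads per kb, above that of the list. The gap in density was smaller there too, with 54.9 reads per kb near the 5′ ends and 50.8 for the other peaks.

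**Figure D4:**
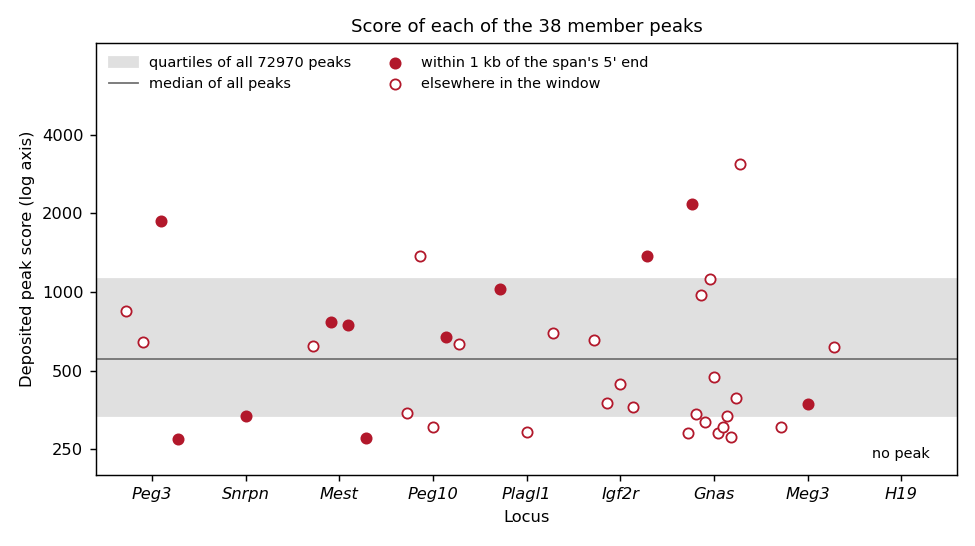
Score of each of the 38 peaks (y axis, log scale) by locus (x axis), with points ordered by position within a locus. Filled points are peaks within 1 kb of the 5′ end of the span, the grey band gives the quartiles of all 72970 peaks (336 to 1119) and the line their median of 553. The highest points are 2 Gnas peaks at 3100 and 2173, and the Peg3 peak at 1871 follows.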

How the data were processed

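The deposited file held 1 row per peak of the Bio-Tdg library, with a position and a score that the authors gave each peak. Tools named in the submitters' processing notes, without role or order, were MACS 1.4.1, Bowtie 0.12.7 and CASAVA 1.8, with the build mm9. The sources used here give no threshold, control or read filter. Groups came from the ChIP label. Positions are printed counting from 1. Reads were recovered where the score, within 0.01, matched the Poisson probability of exceeding a whole read number at 1 rate, 1.13 reads per kb. That rate was fitted on a subset of the peaks with a score below 3050. The match held for 70875 peaks and failed for 2095, most of them at very high scores. On 16066 simulated peaks with a single rate 100% were recovered. With the simulated rate varied at random between peaks, 0.101% of those with a score below 3050 lay within the tolerance at the true rate. Only 1 size of variation was tried. Reads carry no molecular identifiers and may be copies of a molecule, so intervals cover counting error only. Chromosome length was taken from first to last peak. The 1 Mb was centred on the window. The reference gene table gives no strand, so strand came from the RefSeq promoter table. Genes beyond the 9 members were not located, since no mm9 annotation was used. Members and lists were chosen with earlier results of these data known. All peaks were named at loci with at most 5, and at Gnas the highest, the widest and the one nearest the 5′ end. With 1 library no test was made. Software: Python 3.11.15, with pandas 2.3.3, matplotlib 3.10.9, scipy 1.17.1 and numpy 2.4.6.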

Additional observations from a re-analysis of the deposited data

How the results depend on the processing

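The number of peaks was 60 with flanks of 50 kb, 18 at a score of at least 500, 7 at a score of at least 1000, 21 after merging peaks less than 1 kb apart and 25 without Gnas, a setting added after seeing the data. The density was 0.491, 0.358, 0.139 and 0.418 peaks per 10 kb under the first 4 of these. These 5 settings add or remove peaks by construction. At a score of at least 1000, 5 loci had a peak, and with flanks of 50 kb all 9 had one, since 4 peaks then fell to H19. The count of loci with a peak near the 5′ end was 6 at a score of at least 500. Without Gnas, the ratio of the median score of peaks near a 5′ end to that of the other peaks fell from 1.91 to 1.15, and the cause was not tested. Of 90 values for single loci under other settings, 79 stayed within the counting interval or within 1.5 times the reported value. This count is a weak measure of stability. Placing peaks by midpoint or by at least 50% overlap changed no locus density, and H19 stayed at 0 except with flanks of 50 kb. The intervals are also wide. Peg10 counted among the 79 although its density went from 1.52 to 0.531 peaks per 10 kb with flanks of 50 kb. No paired analysis was possible because there is 1 library in each group. The depth of the library is not known and limits what a missing peak can show.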
